A study of Rattus norvegicus with 12 samples.

Results

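Antioxidant enzymes, their transcriptional regulator Nrf2 and the oxidant-producing enzyme Nox4 were described in the livers of obese ZSF1 rats. The group holds 10 genes chosen by symbol (Nox4, Cat, Nfe2l2, Sod1, Sod2, Gpx1, Gclc, Gclm, Hmox1 and Nqo1), out of 16478 genes in the count tables, and all 10 were found and passed the filter on low counts. The series compared whole liver of 6 female and 6 male adult animals of the ZSF1 strain, all obese, 16 weeks old, untreated and freely fed, and 1 RNA sequencing library was made from each. ZSF1 is a hybrid of strains that carry leptin receptor mutations, and obese animals have a defective receptor gene from each parent. Females and males alike are therefore without normal leptin signalling, and no lean animals were among the samples. The series was set up to compare the liver transcriptomes of obese females and obese males.

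Cells make superoxide and hydrogen peroxide on purpose through NADPH oxidases such as Nox4, and as by-products of peroxisomal and mitochondrial oxidation. Superoxide dismutases (Sod1 in the cytosol, Sod2 in mitochondria) turn superoxide into hydrogen peroxide, which catalase (Cat, in peroxisomes) and the selenoenzyme glutathione peroxidase 1 (Gpx1) remove. Nrf2, encoded by Nfe2l2, is held by Keap1 and broken down until oxidants or electrophiles release it. It then switches on genes that carry an antioxidant response element, among them both subunits of the enzyme that limits glutathione synthesis (Gclc, Gclm), heme oxygenase 1 (Hmox1) and the quinone reductase Nqo1. In rat liver, the pattern of growth hormone release, which acts through STAT5, sets many sex differences.

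Upstream sequences are shown for Nox4, which had the widest difference, and for Gclm, whose upstream sequence held matches to both motifs searched. RefSeq promoters (assembly GRCr8, 250 bases before to 50 after the start of the gene) were found for 9 of the 10 members, all but Hmox1. The motifs were TGACNNNGC, a core of the antioxidant response element, and TTCNNNGAA, a core of STAT5 sites, on both strands and with no overlap between the matches found. In the sequences below, capitals mark matches, and positions count from the first transcribed base.
Nox4, chr1:150313639-150313888, plus strand, positions -250 to -1: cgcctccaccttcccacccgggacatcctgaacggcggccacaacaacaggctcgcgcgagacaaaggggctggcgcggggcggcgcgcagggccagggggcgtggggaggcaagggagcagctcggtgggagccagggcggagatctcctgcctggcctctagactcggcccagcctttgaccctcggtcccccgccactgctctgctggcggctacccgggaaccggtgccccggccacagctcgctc
Gclm, chr2:213031885-213032134, plus strand, positions -250 to -1: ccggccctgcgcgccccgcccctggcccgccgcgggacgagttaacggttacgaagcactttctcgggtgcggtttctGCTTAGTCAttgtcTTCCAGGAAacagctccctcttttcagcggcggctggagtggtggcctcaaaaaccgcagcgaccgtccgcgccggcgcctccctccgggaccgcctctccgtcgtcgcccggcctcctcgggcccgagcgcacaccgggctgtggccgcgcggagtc
Sod2, chr1:50050184-50050213, minus strand, positions -45 to -16: ggcgctgccgGCAGGGTCAgcgcctagctg
Nfe2l2, chr3:81028950-81028979, minus strand, positions 21 to 50: actgctccgactagccatTGACGCCGCctc
The element core matched in 3 of the 9 promoters (Gclm, Sod2 and Nfe2l2) and in 12.1% of all 33469 promoters of the table. In Gclm it lay at -172 to -164 and was followed by a match to the STAT5 core at -158 to -150, a motif found in 8.87% of all promoters and in no other member. The Nfe2l2 match lay within transcribed sequence. These letters were not in the window shown for Nox4. A match is a description of sequence and does not show that a factor binds there. Only these windows were searched, so a missing match does not show that a gene lacks the motif elsewhere.

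The libraries held 6763879 to 24837602 counts over genes in females and 11381428 to 29232871 in males. Levels are counts per 1000000 (CPM) scaled by TMM factors, and 3 counts, the level that a count of 0 allows, correspond to 0.105 to 0.416 CPM in a library. Counting intervals below cover counting error only. Liver identity was plain from 11 hepatocyte genes, albumin among them, which together held 239838 to 318797 CPM in females and 206413 to 263669 in males. Male 4 and female 12 stood apart from their groups in earlier results of these data, so values are given with and without them where they matter. The summed level of 15 acute phase genes was 34120.4 to 42735 CPM in females, 41314 to 47533 in 5 of the males and 100439 in male 4. For 12 macrophage genes it was 250.1 to 369 CPM in females, 146 to 262 in the same 5 males and 565 in male 4. For 9 neutrophil genes it was 297 CPM in male 4 and at most 8.12 in any other animal. Most of this was 1 gene, Lcn2, at 269 CPM in male 4 (named after its values were seen). Only 2 of the 9 passed the filter on low counts. Whole liver was sequenced, so fewer cells of a type and less RNA per cell cannot be told apart. The labels give no litter, cage or batch, and males carry the lower animal numbers (1 to 6), so a batch that followed the numbers could not be told apart from sex.

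Of the 10 members, 6 differed between the sexes at an adjusted p under 0.05, where 43.2% of all 9943 tested genes did. Nfe2l2 and Gpx1 were higher in females. Nox4, Cat, Gclm and Sod2 were higher in males, and Sod1, Gclc, Hmox1 and Nqo1 did not pass. By direction, 2 were higher in females (20.5% of all tested genes were) and 4 in males (22.7%). In Nox4 and Cat, both higher in males, every male lay above every female. Of all tested genes, 22.8% had sexes that did not overlap at all, 10.1% with females higher and 12.8% with males higher. The median log2 fold change (females over males) was -0.137 over the members and -0.013 over all tested genes. Adjusted p-values are from edgeR's quasi-likelihood test with Benjamini-Hochberg adjustment over all tested genes, and SE is the standard error of a log2 fold change.

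**Figure D1:**
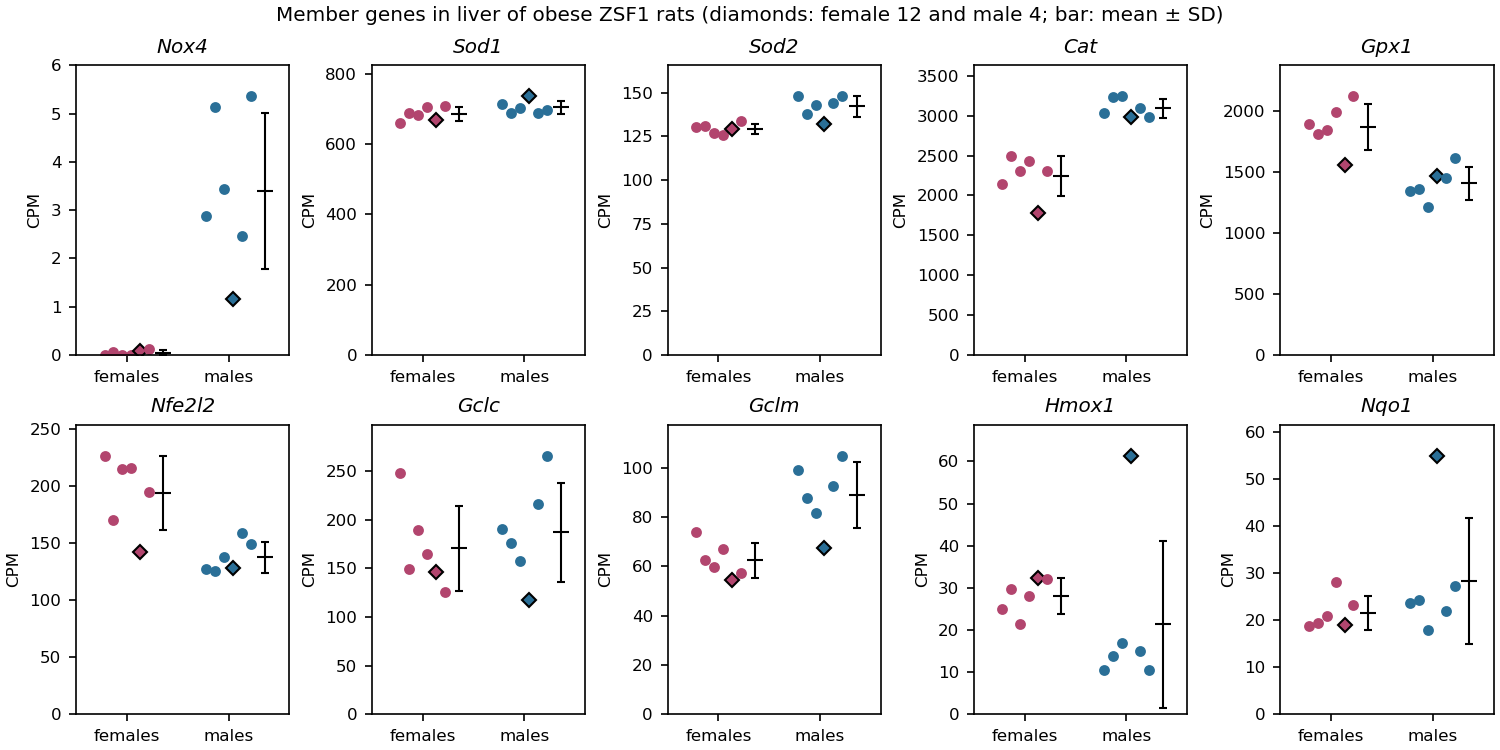
CPM (linear axes from 0) of the 10 members in each of 6 females and 6 males, with the mean and SD of each sex beside the points. Nox4 lies at or near 0 in every female, the male 4 diamond stands at 61.4 CPM for Hmox1 and 55.0 CPM for Nqo1, and the female 12 diamond is the lowest female for Cat, Gpx1, Nfe2l2 and Gclm.

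Nox4, an NADPH oxidase that releases hydrogen peroxide without an added stimulus, was near 0 in the females and present in every male. The 6 females held 0, 1, 0, 0, 1 and 3 counts (animals 7, 8, 9, 10, 12 and 13), and the 6 males 33, 94, 56, 21, 34 and 153 (animals 1 to 6). Females lay between 0 and 0.127 CPM with a median of 0.0303, below the level of 3 counts in their libraries or at it. Males lay between 1.15 and 5.36 CPM with a median of 3.16, and the lowest was male 4. Every male was above every female. Summed over animals there were 5 counts in 95387832 for females and 391 in 107867875 for males, a male to female ratio of 69.2 with an exact 95% binomial interval of 29.4 to 214. The fitted log2 fold change was -5.85 (SE 0.573, adjusted p = 2.3e-06), which for so few female counts depends on the prior count. Of the 2261 genes called higher in males, 21 had a fitted fold at least this wide, Nox4 included. Without male 4 the other 5 males averaged 3.86 ± 1.32 CPM (SD). Nox4 is also known from stellate cells. Of 10 tested genes of that cell type, 3 passed toward females, where 20.5% of all tested genes did. Toward males 1 passed (Dcn, an extracellular matrix proteoglycan), where 22.7% of all did. Without male 4 the counts were 5 of 11 toward females and 0 toward males. In that fit 2389 of 9972 genes passed toward females and 2238 toward males. The summed level of the stellate genes was 351 to 450.1 CPM in females and 301 to 449 in males. None of the 11 stellate genes in the files was at 0 throughout, and their part in the Nox4 difference was not tested.

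Most other NADPH oxidase genes did not pass. Of 9 tested genes of this list, 0 were higher in females (0 also at an unadjusted p under 0.05, by DESeq2 and by limma-voom) and 1 was higher in males, with a median log2 fold change of -0.201. The gene that passed was Poldip2, whose protein is known to bind the Nox4 complex, at 136 ± 2.87 CPM in females and 156 ± 4.03 in males (SD, n = 6 each; 1.15-fold, edgeR adjusted p = 0.00238). Rac1, a small GTPase that activates other oxidases and the most abundant gene of the list that did not pass, averaged 46.6 ± 1.19 CPM in the females, against 46.2 ± 2.61 CPM in the males. Cyba, the membrane partner that Nox4 needs, averaged 2.12 ± 0.362 CPM in the females, against 2.70 ± 1.69 CPM in the males (adjusted p = 0.421). Male 4 held 6.09 CPM of Cyba, and the other 5 males averaged 2.02 ± 0.352 CPM. Nox3 had no count in any library, and Noxo1, Duox1, Duox2, Duoxa1 and Duoxa2 were too low to test, with at most 12 counts in a library. The phagocyte oxidase genes turned on male 4. Without it, 4 genes of the list were higher in females, among them Cybb, the catalytic subunit of phagocytes (4.98 ± 0.839 CPM in females, 2.53 ± 0.847 in the other 5 males, 9.49 in male 4; edgeR adjusted p = 0.00035), Ncf1 (1.57-fold) and Rac2 (1.26-fold). Without male 4 and female 12 together, this count was 2. Macrophage genes moved with them. Of 12 tested, 3 were higher in females with all animals, where 20.5% of all tested genes were. Without male 4, 11 were higher in females, in a fit where 2389 of 9972 genes were. Cyba, Cybb, Ncf1 and Rac2, and Anpep and Dcn elsewhere, were named after their values were seen.

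Genes of other oxidases that make hydrogen peroxide passed as higher in females for 4 of 17 tested, close to the 20.5% of all tested genes, and as higher in males for 7, where 22.7% of all did. Their median log2 fold change was -0.098. Without male 4 the counts were 3 in females and 8 in males, and without female 8, male 1 or male 3 the count in females was 2. Peroxisomal oxidases led those higher in males. Hao2, a 2-hydroxyacid oxidase, averaged 32.2 ± 7.23 CPM in the females, against 394 ± 123 CPM in the males (12.2-fold, edgeR adjusted p = 2.08e-07), and Hao1, the glycolate oxidase, was 1.90-fold higher in males. Dao, the D-amino acid oxidase, and Acox2, the acyl-CoA oxidase of branched chains and bile acid intermediates, were 1.61-fold and 1.52-fold higher in males. Uox, the urate oxidase, averaged 1051 ± 62.7 CPM in the females, against 1125 ± 176 CPM in the males and did not pass (adjusted p = 0.466), but passed without male 4, at 1.13-fold higher in males (adjusted p = 0.0476).

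The superoxide dismutase transcripts were close in level between the sexes. Sod1 ran from 661 to 709 CPM in females (median 685) and from 688 to 736 in males (median 699.9). Its log2 fold change was -0.04 (SE 0.0541, adjusted p = 0.598), and the interval, -0.14 to 0.07, allows only a small difference either way. Sod2 ran from 126 to 134 CPM in females (median 129) and from 132 to 148 in males (median 143). The male that overlapped the females was male 4, at 132 CPM. The Sod2 difference was 1.10-fold toward males (log2 -0.13, SE 0.0483, edgeR adjusted p = 0.0356). This call was lost under 13 of 22 alternatives, among them RLE, upper quartile or no scaling factors (adjusted p = 0.0535, 0.085 and 0.139), no filter (0.0696), the fit without the 20 most abundant genes (0.0626), and leaving out female 7, 8, 9 or 10 or male 1, 3, 5 or 6 (0.0531 to 0.0901). Its direction was kept in all 22. Counted within each library, the Sod2 to Sod1 ratio was 0.189 ± 0.00629 in females and 0.202 ± 0.012 in males (SD, n = 6 each), with overlapping ranges.

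Cat and Gpx1, the members whose enzymes remove hydrogen peroxide, differed in opposite directions. Cat ran from 1784 to 2489 CPM in females (median 2307) and from 2978 to 3243 in males (median 3066), with no overlap. Female 12 was the lowest. Catalase transcript was 1.38-fold higher in males (log2 -0.46, SE 0.084, edgeR adjusted p = 0.000495), and without female 12 the log2 value was -0.407. Gpx1 ran the other way, from 1563 to 2123 CPM in females (median 1871) and from 1215 to 1615 in males (median 1406). The female that overlapped the males was female 12, at 1563 CPM, while the other 5 females were at 1809.5 CPM or above. Gpx1 was 1.33-fold higher in females (log2 0.41, SE 0.0884, edgeR adjusted p = 0.00187). Set against each other within a library, which no scaling of libraries can alter, the Gpx1 to Cat count ratio was 0.727 to 0.922 in females and 0.375 to 0.541 in males. The ranges lay well apart, with means of 0.838 ± 0.0702 in females and 0.457 ± 0.0581 in males (SD, n = 6 each). This ratio was chosen after the values were seen and is given with no test. Of the other glutathione peroxidase and peroxiredoxin genes tested, Gpx4 (1.36-fold, edgeR adjusted p = 4.18e-05), Prdx1, Prdx2, Prdx4 and Prdx5 passed as higher in males. Gpx3, Gpx8, Prdx3 and Prdx6 did not pass. All of these but Prdx5 were named after their values were seen.

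**Figure D2:**
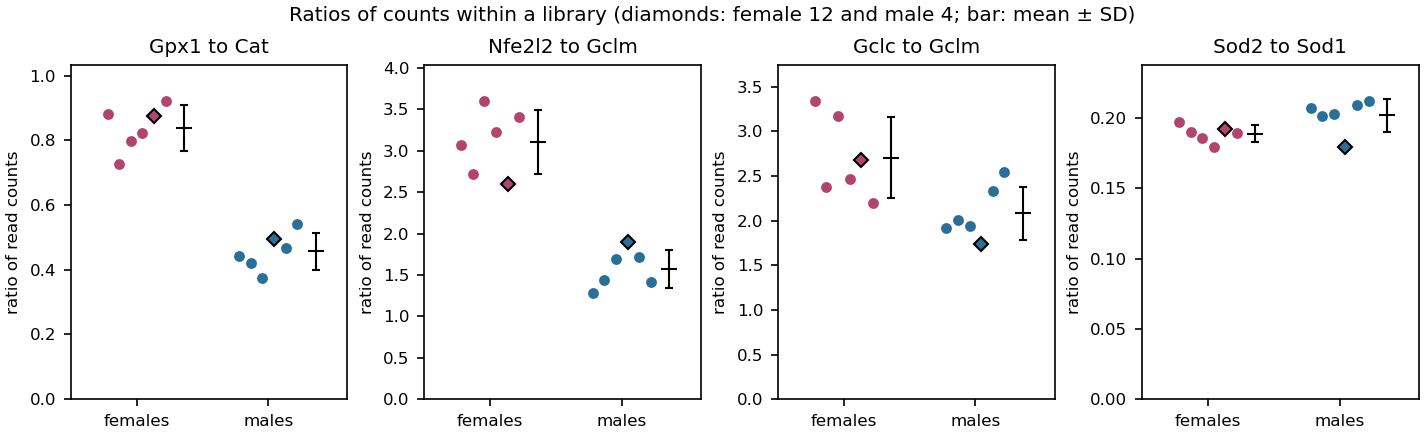
Ratio of read counts of gene pairs within each library (linear axes from 0) for 6 females and 6 males, with mean and SD. The sexes are apart for Gpx1 to Cat (0.727 to 0.922 in females, 0.375 to 0.541 in males) and for Nfe2l2 to Gclm (2.6 to 3.6 in females, 1.28 to 1.9 in males), and overlap for Gclc to Gclm and Sod2 to Sod1.

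Beyond the members, thioredoxin, peroxiredoxin and related defence genes held 4 of 25 tested that were higher in females (20.5% of all tested genes were) and 12 higher in males (22.7%). Their median log2 fold change was -0.163, and the counts were the same without male 4. Sepx1, now named Msrb1, a selenoenzyme that repairs oxidized methionine, averaged 53.0 ± 4.78 CPM in the females, against 99.9 ± 3.70 CPM in the males (1.89-fold, edgeR adjusted p = 4.5e-08). Prdx5, a peroxiredoxin, was 1.54-fold higher in males. Toward females were the stress-induced sestrin genes Sesn3 (1.69-fold) and Sesn1 (1.56-fold). Pon2, a lactonase with antioxidant activity, averaged 215 ± 9.88 CPM in the females, against 215 ± 18 CPM in the males. The related genes Pon1 (1.42-fold, edgeR adjusted p = 0.000119) and Pon3 (1.15-fold, adjusted p = 0.0312) were higher in females. Both were named after their values were seen.

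Genes of glutathione synthesis and recycling and its peroxidases, the members left out, were higher in females for 0 of 23 tested (0 also at an unadjusted p under 0.05, by DESeq2 and by limma-voom) and in males for 9, where 20.5% and 22.7% of all tested genes were. Their median log2 fold change was -0.148. Without male 4 they were 1 in females and 10 in males, the gene higher in females being the peptidase gene Anpep. Oplah, the 5-oxoprolinase that returns glutamate to glutathione synthesis, averaged 50.8 ± 6.70 CPM in the females, against 128 ± 15 CPM in the males (2.52-fold, edgeR adjusted p = 7.07e-08). Hagh, a glyoxalase that frees glutathione, was 1.85-fold, the microsomal transferase gene Mgst3 1.79-fold and Chac2, which breaks glutathione down, 1.37-fold higher in males. Mgst1, the most abundant gene of the list that did not pass, averaged 2867 ± 249 CPM in the females, against 3083 ± 127 CPM in the males (adjusted p = 0.283).

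Nfe2l2, which encodes Nrf2, was higher in females. It ran from 142 to 227 CPM in females (median 205) and from 126 to 159 in males (median 133). Female 12, at 142 CPM, was the only female within the male range, and the other 5 females were at 170.3 CPM or above. The fold was 1.41 (log2 0.49, SE 0.106, edgeR adjusted p = 0.00183), and the log2 value lay between 0.443 and 0.568 under the 22 alternatives. Nrf2 is regulated largely through its protein, which was not measured. Among 21 tested regulators of Nrf2, 8 were higher in females (20.5% of all tested genes were) and 2 in males (22.7%), with a median log2 fold change of 0.111, or 7 in females and 3 in males without male 4. Maf, a transcription factor, averaged 8.34 ± 1.67 CPM in the females, against 3.09 ± 1.47 CPM in the males (2.73-fold, edgeR adjusted p = 0.000437). Ahr, the aryl hydrocarbon receptor, which can drive Nfe2l2 transcription, was 2.34-fold and Btrc, a ubiquitin ligase subunit that marks Nrf2 for breakdown, 1.5-fold higher in females. Sqstm1, whose protein p62 draws Keap1 away and which is itself an Nrf2 target, averaged 489 ± 53.1 CPM in the females, against 748 ± 52.7 CPM in the males (1.53-fold, adjusted p = 3.38e-05). Keap1 itself, named here after its values were seen, averaged 37.3 ± 2.29 CPM in the females, against 34.4 ± 4.05 CPM in the males (adjusted p = 0.269). Syvn1, another ubiquitin ligase known to act on Nrf2, was the most abundant that did not pass, and its direction rested on female 12 (182 CPM, against 71.0 to 84.9 in the other females and 60.8 to 107 in males).

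Of the 4 Nrf2 target genes among the members, 1 passed with all animals, where 43.2% of all tested genes did. This was Gclm, which was higher in males. It encodes the modifier subunit of glutamate-cysteine ligase and ran from 54.6 to 74.1 CPM in females (median 61.0) and from 67.4 to 105 in males (median 90.1). The male that overlapped the females was male 4, at 67.4 CPM, and the other 5 males were at 81.8 or above. Gclm was 1.42-fold higher in males (log2 -0.51, SE 0.101, edgeR adjusted p = 0.00104). Gclc, the catalytic subunit, ran from 126 to 248 CPM in females (median 157) and from 117 to 266 in males (median 183). Its spread within a sex was wide, with a coefficient of variation of 25.4% in females and 27.2% in males, against 2.82% and 2.58% for Sod1. The log2 fold change was -0.14 with an interval of -0.52 to 0.24, so a difference of moderate size either way was not detectable (adjusted p = 0.598). The Gclc to Gclm count ratio was 2.71 ± 0.456 in females and 2.08 ± 0.301 in males, with overlapping ranges, and the Nfe2l2 to Gclm ratio was 3.11 ± 0.389 in females and 1.58 ± 0.229 in males, with none (SD, n = 6 each). The last ratio was chosen after the values were seen.

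Hmox1 and Nqo1 depended on male 4. Hmox1, the inducible enzyme that breaks down heme, ran from 21.3 to 32.3 CPM in females (median 28.9) and from 10.4 to 61.4 in males (median 14.4). Male 4 held the 61.4 CPM, and the other 5 males lay between 10.4 and 16.8, below every female. With all animals Hmox1 did not pass (log2 0.40, SE 0.42, edgeR adjusted p = 0.479). Without male 4 it was 2.14-fold higher in females (log2 1.10, SE 0.137, adjusted p = 2.64e-05), in a fit where 46.4% of genes passed. Over all genes, 26.6% showed no overlap without male 4. DESeq2 gave it no adjusted p with all animals. Nqo1, which reduces quinones, ran from 18.7 to 28.1 CPM in females (median 20.1) and from 17.8 to 55.0 in males (median 23.9). Male 4 again held the highest value, and the other 5 males lay within 17.8 to 27.2 CPM. Nqo1 did not pass with all animals (log2 -0.39, SE 0.243, edgeR adjusted p = 0.22) or without male 4 (log2 -0.07, SE 0.122, adjusted p = 0.651). Kupffer cells, the macrophages of liver, are known to express Hmox1, and the summed level of 12 macrophage genes was, like Hmox1, highest in male 4, with 250.1 to 369 CPM in females, 146 to 262 in the other 5 males and 565 in male 4. None of these genes was at 0 throughout. Their part in the Hmox1 difference was not tested. Of 6 tested genes of sinusoidal endothelial cells, out of 10 listed, 5 were higher in females, where 20.5% of all tested genes were. The 6 genes summed to 92.7 to 119 CPM in females and 35.9 to 93.5 in males.

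**Figure D3:**
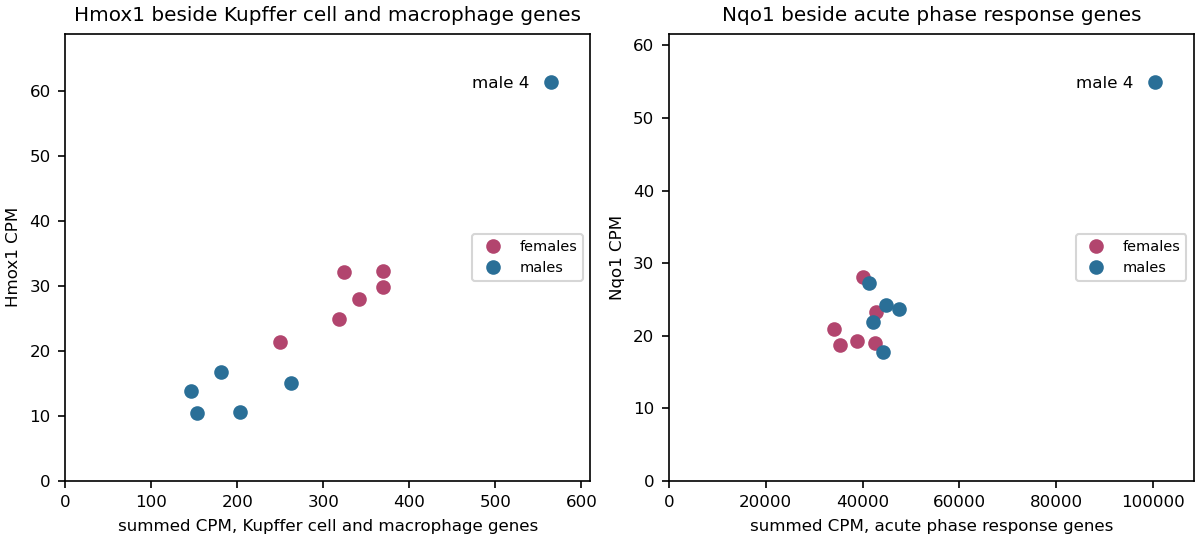
Hmox1 CPM beside the summed CPM of 12 macrophage genes (left) and Nqo1 CPM beside the summed CPM of 15 acute phase genes (right), 1 point per animal, linear axes from 0. Male 4 is the highest point in both panels, and in the left panel the females (21.3 to 32.3 CPM) lie above the other 5 males (10.4 to 16.8 CPM).

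**Figure D4:**
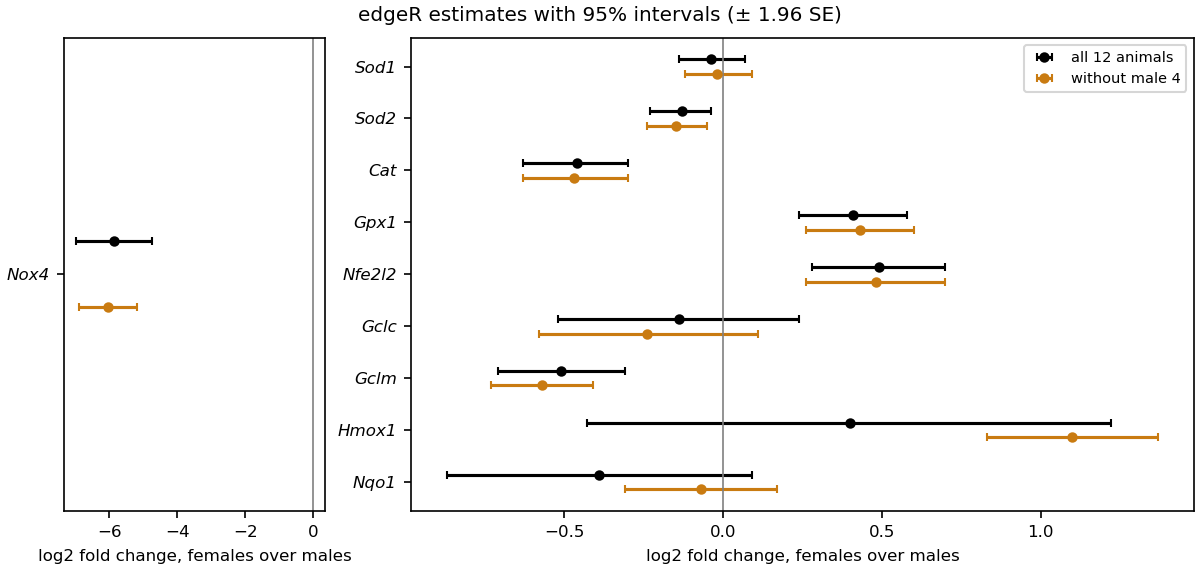
Log2 fold change, females over males, of the 10 members with 95% intervals, from all 12 animals (black) and without male 4 (orange); Nox4 has an axis of its own. Hmox1 is at 0.40 with all animals and at 1.10 without male 4, while Cat, Gclm, Gpx1 and Nfe2l2 keep their side of 0.

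In each passing member whose sexes overlapped, the overlapping animal was male 4 or female 12, so leaving both out had to end the overlap. Both had been singled out from earlier results of these data, so the counts that follow are description only. Without male 4 and female 12, 7 of the 10 members showed no overlap (Sod1, Gclc and Nqo1 did), where 30.5% of all tested genes showed none. In that fit the same 6 members passed and Hmox1 as well, 3 higher in females and 4 in males, where 46.7% of all genes passed.

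Other genes known as Nrf2 targets went both ways. Of 34 tested, 7 passed as higher in females, close to the 20.5% of all tested genes, and 14 as higher in males, where 22.7% of all did. The counts were the same without male 4, and the median log2 fold change was -0.083. Akr1b8, an aldo-keto reductase gene, averaged 30.9 ± 4.68 CPM in the females, against 0.936 ± 0.303 CPM in the males (33.3-fold, edgeR adjusted p = 4.47e-12). Trib3, a pseudokinase gene of the stress response, was 2.84-fold and the glutathione transferase gene Gstm1 2.15-fold higher in males. Ephx1, the microsomal epoxide hydrolase, averaged 657 ± 240.0 CPM in the females, against 826 ± 132 CPM in the males and did not pass (adjusted p = 0.331). Female 12 held 229.9 CPM of it. Akr1b8 and Gstm1 have close relatives in the genome, and how reads were divided among them is not known. Of the 122 different genes tested over the 6 lists, 7 stood on more than 1 list.

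**Figure D5:**
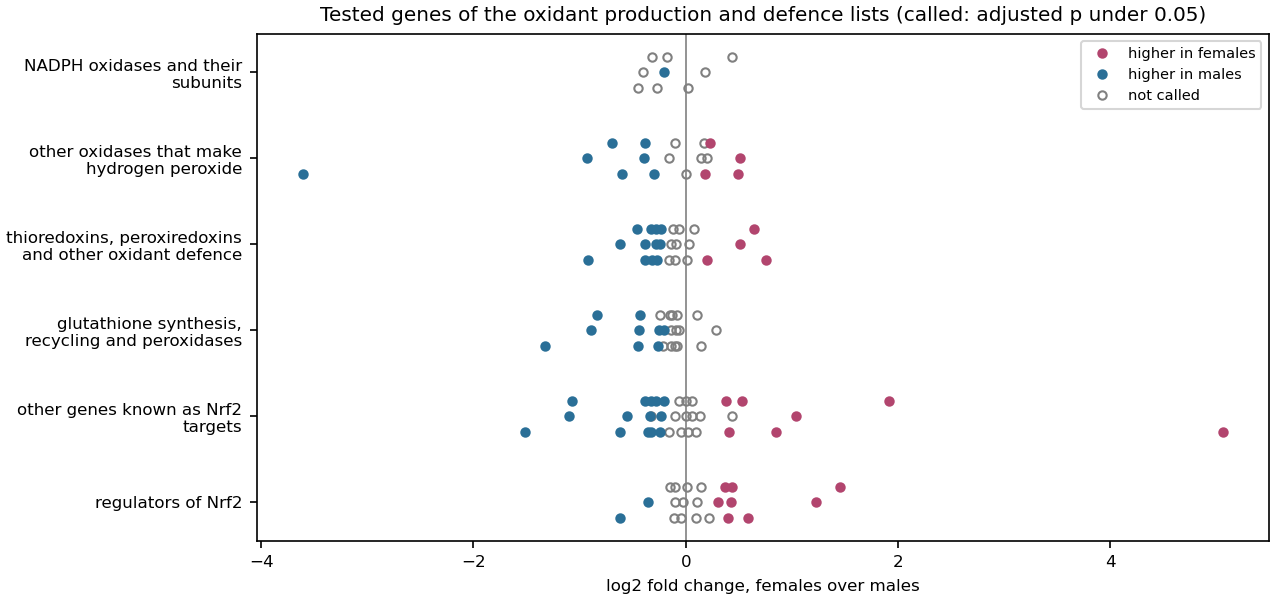
Log2 fold change, females over males, of each tested gene of 6 lists of oxidant production and defence, 1 point per gene; filled points passed at an adjusted p under 0.05. Most genes lie within 1 log2 unit of 0, Hao2 stands at -3.61 and Akr1b8 at 5.06.

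Among themselves and within a sex, Gclc and Gclm varied most alike of the 45 pairs of members. Likeness was measured on log2 CPM with the sex mean removed and scaled to unit SD, as the root mean square difference over the 12 animals, which is 0 for identical patterns. It was 0.488 for Gclc and Gclm, 0.731 for Hmox1 and Nqo1, and 0.979 for Nfe2l2 and Gclm. Over all genes compared, the median difference from a member was 1.36 to 1.49. The 3 genes of at least 5 CPM most like Gclm were Pcyt1a (0.208), Cyp20a1 (0.308) and N4bp2l2 (0.337), and those most like Gclc were Dhx33 (0.269), Amd1 (0.283) and Ciapin1 (0.292). Most like Hmox1 were Itgal (0.200), Nckap1l (0.209) and Ifitm1 (0.266), and most like Nqo1 were RT1-CE5 (0.245), RT1-A2 (0.286) and Arhgef2 (0.289). Male 4 is the widest deviation in Hmox1 and in Nqo1, and none of the genes most like a member was itself a member. Most like Nox4 were Rnf144b (0.273), Anp32e (0.458) and Ercc5 (0.465). Nox4 held at most 3 counts in any female, so its pattern rests mostly on the males, of which male 4 was the lowest. Most like Nfe2l2 were Scd (0.415), Ube2z (0.449) and Aldh4a1 (0.457). For Cat they were Uba7 (0.335), Thnsl2 (0.359) and Lcn12 (0.374), and for Gpx1 Kmo (0.435), Thrap3 (0.466) and Tbcc (0.478). For Sod1 they were P2rx7 (0.444), Ptdss2 (0.490) and Sema4a (0.499), and for Sod2 Hsd17b13 (0.387), Vps4a (0.424) and Nsd1 (0.464). These are the nearest of about 7545 genes over 12 animals and carry no test.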

How the data were processed

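Liver RNA of 12 animals was sequenced from Illumina TruSeq libraries with an input of 1 µg, per the labels' protocols. Per the submitters' processing notes, Bowtie2 2.0.2, DESeq and build rn4 were used. Counting program, annotation and strand setting are not given in the sources used here. Reads from antisense or overlapping neighbours can therefore not be separated. The authors deposited whole-number counts per gene symbol, without normalization judging by the values. Left out were 5 rows that name no gene (27.1% to 31.7% of counts). Of 30 same-sex pairs of libraries none matched within sampling noise, the lowest chi-square per df being 6.34.

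Females were compared with males by the robust quasi-likelihood F test of edgeR 4.0.16 (R 4.3.3) after filterByExpr (count 10, total 15) and TMM scaling. P-values were adjusted over 9943 genes, with a threshold of 0.05. SE is |log2 fold change|/sqrt(F), and level errors are SD over 6 animals. Intervals of log2 fold changes are nominal 95% intervals from the SE and a normal distribution, somewhat narrower than the F test would give. The 22 alternatives changed factors, filters or dispersion, used DESeq2 1.42.0 or limma-voom (limma 3.58.1), dropped the 20 most abundant genes, or left out animals. The edgeR step was tested on simulated counts. Members and gene lists were chosen with earlier results of these data known. The text names the members and, per list, the 4 called genes of widest fold and the most abundant uncalled gene. Genes named outside this rule are marked as such, and a gene the rule picks is not reported here. Promoters from RefSeq (GRCr8) serve for sequence only, since the counts come from another build. The p-values set the difference between the sexes against the spread between single animals.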

Additional observations from a re-analysis of the deposited data

Results flagged for a closer look

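In 10 of 74 sets of 6 same-sex animals looked at (37 genes, each sex apart), the highest or lowest animal lay far from the rest by Dixon's test, where chance gives about 1 in 20. Among the members these were Hmox1 and Nqo1 in male 4, at 61.4 CPM against 10.4 to 16.8 in the other 5 males and at 55.0 CPM against 17.8 to 27.2. Male 4 was also low for Hao1, at 448 CPM against 550.4 to 579.9. Female 12 gave 5 of the 10: it was low for Hagh (133 CPM against 146 to 151 in the other females), Mgst3 (28.2 against 39.0 to 43.6) and Hao2 (18.3 against 30.8 to 37.3), and high for Syvn1 (182 against 71.0 to 84.9) and Pon2 (234 against 206 to 216). Female 13 was high for Akr1b8 (40.0 CPM against 27.4 to 30.6) and female 7 for Sesn3 (14.1 against 9.16 to 10.7). The cause was not tested.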

How the results depend on the processing

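No paired analysis was possible because the sexes share no animal number. Nox4, Cat, Nfe2l2, Gpx1 and Gclm kept their direction and their call under all 22 alternatives, and Sod2 kept its direction. Members higher in females were 2 to 3 and members higher in males 3 to 4 with each animal left out in turn. Over all genes, 1810 to 2389 were higher in females and 2019 to 2238 in males when an animal was left out. With an animal left out in turn, NADPH oxidase genes higher in females were 0 to 4 (4 without male 4), glutathione genes higher in females 0 to 1 (1 without male 4) and other oxidase genes higher in females 2 to 4 (2 without female 8, male 1 or male 3). Without male 4 and female 12 together, NADPH oxidase genes higher in females were 2 and glutathione genes 1. Log2 fold changes near 0 changed sign for Rac1 (-0.007 without male 6, and up to 0.036 with another animal left out), Syvn1 (-0.087 without female 12, up to 0.312 with another animal left out, and -0.147 without female 12 and male 4) and Pon2 (-0.019 without female 12, -0.005 without male 2, -0.027 without male 6, up to 0.046 with another animal left out, and -0.013 without male 4 and female 12), none of which passed in any fit, and the cause was not tested. Depth limits Nox4 in females and the oxidase genes under the filter, where a few counts decide a level.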
